A study of Homo sapiens with 3 samples.

Results

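The 28 protein genes of the small ribosomal subunit described here were RPSA, RPS2, RPS3, RPS3A, RPS4X, RPS6, RPS7, RPS9, RPS10, RPS12, RPS13, RPS14, RPS15, RPS15A, RPS16, RPS18, RPS19, RPS20, RPS21, RPS23, RPS24, RPS25, RPS26, RPS27, RPS27A, RPS28, RPS29 and FAU. They were taken by name from 26565 genes and compared between libraries labelled shBCAT1 and a control library. All were from MTAC-P, a human cell line that was obtained from the lung cancer line PC9 and withstands inhibitors of the EGFR kinase. There were 2 shBCAT1 libraries, made after short hairpins against BCAT1, and 1 control library, made after a short hairpin against luciferase. The labels do not say whether shBCAT1 1 and shBCAT1 2 carried the same hairpin or came from separate cultures, so the spread between them may be technical. The control had no replicate. Values were FPKM, fragments scaled for transcript length and for the number of mapped fragments, as the authors deposited them for each library.

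The small subunit of the cytosolic ribosome binds the mRNA and holds the site where codons are read. Its proteins sit on an rRNA core in a head, a body and a platform, and each is made from a single highly expressed gene in most cells. Many of their mRNAs begin with a terminal oligopyrimidine tract, the 5′ TOP, through which mTORC1 and LARP1 control their translation and stability as a group. The enzyme BCAT1 works in the cytosol on branched-chain amino acids, and leucine, one of these, is sensed by mTORC1.

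The first bases of these mRNAs are shown because the shared tract is the best known common feature of the set. RefSeq windows on GRCh38.p14 were found for 25 of the 28 genes, and for 24 of them the RefSeq start lay within 337 bases of the start of the gene's main transcript in the deposited tables. A TOP-type start was counted where the first base was C and at least 4 more bases after it were each C or T. Of the 24 genes, 18 had such a start, with runs of 6 to 14 pyrimidines, and 6 did not (RPS4X, RPS7, RPS15, RPS26, RPS27A and RPS28). Among all 35116 RefSeq windows the share was 4.07%. Each line gives 10 bases before the start and 20 from it, 5′ to 3′ on the strand of the gene, and capitals mark the run of pyrimidines that begins at the annotated first base.
RPS6: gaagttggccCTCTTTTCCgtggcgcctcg
RPS3: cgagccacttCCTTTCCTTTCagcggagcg
RPS21: ctagctgcttCCTTTCTCTCTCgcgcgcgg
RPS13: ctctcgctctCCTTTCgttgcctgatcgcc
RPS14: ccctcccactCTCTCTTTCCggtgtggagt
RPS24: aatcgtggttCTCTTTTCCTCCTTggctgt
RPS26: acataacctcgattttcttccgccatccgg
RPS28: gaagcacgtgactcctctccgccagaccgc
RPS15: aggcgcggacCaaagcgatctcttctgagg
These stretches lay at chr9:19380217-19380246 on the minus strand for RPS6, chr11:75399508-75399537 on the plus strand for RPS3, chr20:62387093-62387122 on the plus strand for RPS21 and chr11:17077648-17077677 on the minus strand for RPS13. Those of RPS14 and RPS24 lay at chr5:150449720-150449749 on the minus strand and chr10:78033853-78033882 on the plus strand. RPS26, RPS28 and RPS15, all on the plus strand, lay at chr12:56041908-56041937, chr19:8321486-8321515 and chr19:1438386-1438415. RPS6 and RPS3 were chosen as the genes with the smallest differences among the 24, RPS21, RPS13 and RPS14 as genes with large differences, RPS24 for the longest run, and the last 3 because their annotated first bases did not form the tract. RPS26 and RPS28 have pyrimidine runs a few bases further on. A match is a feature of the annotated start and does not show where transcription began in these cells.

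The series as a whole set the following limits. FPKM summed to 44313 in shBCAT1 1, 46145 in shBCAT1 2 and 53898 in the control, and the 3 most abundant genes (RN7SL1, RN7SL2 and MIR3648-2) held 23.5%, 22.7% and 21.3% of it in the same order. BCAT1 itself was low, at 1.05 FPKM in shBCAT1 1 (bounds 0.835 to 1.27), 0.241 FPKM in shBCAT1 2 (0.158 to 0.325) and 0.213 FPKM in the control (0.129 to 0.297). Neither shBCAT1 library was below the control, and shBCAT1 1 was above it with bounds apart, so all comparisons here are between libraries as labelled. Lung epithelial markers, a list that includes keratins, summed to 791.5 and 1098 FPKM in the shBCAT1 libraries and 941.5 FPKM in the control (7 of 9 genes at a mean of 1 FPKM or more). The most abundant were the keratins KRT8, KRT7 and KRT18, at means of 320.6, 295.8 and 216.8 FPKM over the 3 libraries. The sum does not give the level of each other marker. Markers of fibroblasts, leukocytes, endothelium and red cells summed to at most 0.259 FPKM per list in any library, with none of the 15 genes at a mean of 1 FPKM.

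All 28 genes were measured, at means of 12.8 to 257 FPKM over the 3 libraries, and all had an OK status in each. Their values had a median difference in log2(FPKM + 1), shBCAT1 minus control, of -0.55 over the 28 genes, beside -0.06 over the 3889 genes tested. The genes summed to 2667 FPKM in shBCAT1 1 and 2512 FPKM in shBCAT1 2, against 3743 FPKM in the control. As a share of all FPKM this was 6.02% and 5.44% in the shBCAT1 libraries (mean 5.73 ± 0.41, SD, n = 2), against 6.95% in the control. With 2 libraries against 1, an exact permutation test could not pass a threshold of 0.05, and none was run. FPKM is scaled within each library, so these values do not by themselves show a lower content of these mRNAs per cell. In bulk RNA such a lower content and fewer cells with a high content cannot be told apart. With 1 control library, neither can be told from a difference particular to that library.

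**Figure D1:**
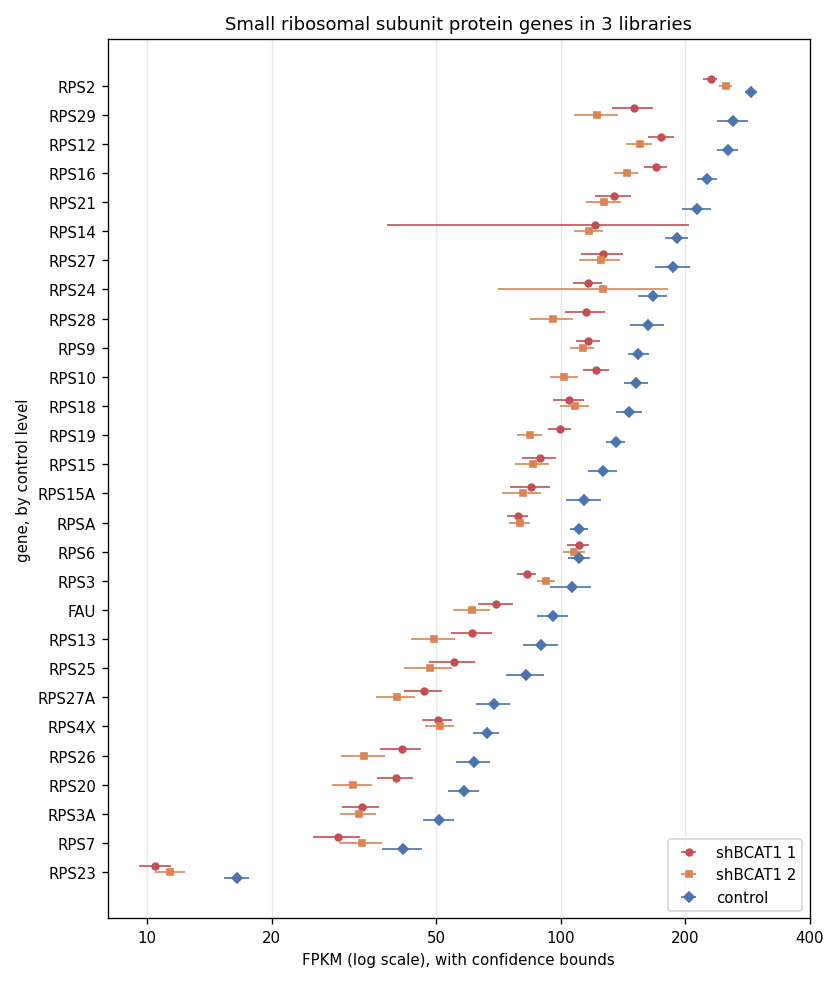
FPKM of the 28 small ribosomal subunit protein genes (log scale) in the shBCAT1 libraries (circles and squares) and the control library (diamonds), ordered by control level. Bars are the confidence bounds, combined over the transcripts of a gene; shBCAT1 values lie left of the control for every gene, by the least for RPS6.

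The values of both shBCAT1 libraries lay below that of the control for 28 of 28 genes, beside 43.7% of all genes tested. Among the 413 genes tested whose mean level lay between those of the lowest and the highest of the 28, the percentage was 75.1%. These 413 start at 12.8 FPKM and include the 28 genes themselves and large subunit genes. Only 1 of the 28 had a mean under 20 FPKM, so the 413 share their range but not their distribution of levels. Both shBCAT1 libraries are set against the same control library, so these are not independent comparisons. By library, all 28 genes were below the control in each, beside 68.7% of genes tested in shBCAT1 1 and 49.0% in shBCAT1 2. The median difference of the 28 genes was -0.50 in shBCAT1 1, where the median of all genes tested was -0.12, and -0.60 in shBCAT1 2, where it was 0.01 (0.005 before rounding). The bounds, combined over the transcripts of a gene, lay below those of the control for 26 genes in shBCAT1 1. This was beside 7.61% of all genes tested and 43.1% of the 413. In shBCAT1 2 the bounds did so for 25 genes, beside 7.66% and 38.3%. They lay above the control for 0 genes in either, beside 1.65% of genes tested in shBCAT1 1 and 7.35% in shBCAT1 2. The bounds cover error within a library and not the spread between libraries. Combining them over transcripts took the errors of a gene's transcripts as independent.

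By limma with Benjamini-Hochberg adjustment, 0 of the 28 genes passed an adjusted p of 0.05 in either direction, beside 0.36% of genes tested called lower and 0.0% called higher, and adjusted p over the 28 ranged from 0.797 to 0.977. At an unadjusted p under 0.05, 22 of the 28 were lower and 0 higher, beside 4.96% and 0.643% of genes tested. The count of lower genes was 2 after scaling by the median of ratios, 3 after the trend on transcript length was removed and 0 after quantile normalization. In the same order, 4.6%, 4.68% and 4.17% of all genes tested passed that threshold, both directions together. The fit rests on 1 residual degree of freedom between the shBCAT1 libraries, and its p-values take the spread of the control to equal theirs.

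Among proteins of the head, where the subunit grips the mRNA and contacts the tRNAs, RPS29 had the largest difference, which was also the largest of the 28 genes. RPS29 (chromosome 14, 49576672 to 49586416, hg38), a zinc-binding protein of the head, was at 150.1 FPKM in shBCAT1 1 and 122.6 FPKM in shBCAT1 2, against 261.6 FPKM in the control. Both shBCAT1 values lay below the control with bounds apart, and RPS29 stood at places 4 and 7 of the 28 by level in the shBCAT1 libraries, against place 2 in the control. In log2(FPKM + 1) it differed by -0.94 ± 0.19 (SE; adjusted p by limma 0.797), and by -0.51 after quantile normalization. RPS20 (chromosome 8) was at 39.9 FPKM in shBCAT1 1 and 31.4 FPKM in shBCAT1 2, against 58.5 FPKM in the control. RPS25, which initiation on some viral RNAs depends on, was at 55.2 FPKM in shBCAT1 1 and 48.3 FPKM in shBCAT1 2, against 82.6 FPKM in the control. RPS20 and RPS25 shared this order, lowest in shBCAT1 2 and highest in the control.

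RPS28 and RPS19, whose loss of function causes the red cell failure of Diamond-Blackfan anaemia, are also proteins of the head. RPS28 was at 115.5 FPKM in shBCAT1 1 and 95.7 FPKM in shBCAT1 2, against 162.6 FPKM in the control. RPS19 was at 99.8 FPKM in shBCAT1 1 and 84.3 FPKM in shBCAT1 2, against 136 FPKM in the control. For both genes the bounds lay apart from the control in both libraries. RPS12, which sits on the beak of the head, was at 175.3 FPKM in shBCAT1 1 and 155.5 FPKM in shBCAT1 2, against 253.4 FPKM in the control. RPS16, whose tail reaches towards the tRNA in the peptidyl site, was at 169.8 and 144.5 FPKM in the shBCAT1 libraries, against 226.5 FPKM in the control. RPS10, RPS15 and RPS18 were lower by 26.5%, 31.1% and 27.2% in the mean of the shBCAT1 libraries. RPS3, which lines the channel where mRNA enters and also acts in DNA repair, had the smallest difference of the head proteins. It was at 82.9 FPKM in shBCAT1 1 and 92.3 FPKM in shBCAT1 2, against 106.4 FPKM in the control, and the bounds of shBCAT1 2 overlapped those of the control.

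RPS27A (chromosome 2, 55231903 to 55235853) encodes a head protein made as a fusion with ubiquitin, which is cut off after translation, and the gene is one of the cell's sources of ubiquitin. It was at 46.7 FPKM in shBCAT1 1 and 40.1 FPKM in shBCAT1 2, against 69.1 FPKM in the control, with bounds apart in both. FAU, a body protein, is also made as a fusion, with a ubiquitin-like protein. It was at 69.9 FPKM in shBCAT1 1 and 61.2 FPKM in shBCAT1 2, against 96 FPKM in the control. The fitted differences of RPS27A and FAU were -0.66 ± 0.19 and -0.55 ± 0.18 (SE), beside a median of -0.55 over the 28 genes.

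Body and platform proteins included both the gene with the highest level and the gene that differed least. RPS6 (chromosome 9, 19376256 to 19380237), the protein phosphorylated by the S6 kinases downstream of mTORC1, was at 110.5 FPKM in shBCAT1 1 (bounds 103.7 to 117.2) and 108 FPKM in shBCAT1 2, against 110.8 FPKM in the control (104 to 117.7). These values overlapped within their bounds, and the libraries differed by -0.02 ± 0.15 (SE; adjusted p by limma 0.977). Its share of the summed FPKM of the 28 genes was 4.14% and 4.3% in the shBCAT1 libraries, against 2.96% in the control. It stood at places 12 and 11 by level in the shBCAT1 libraries, against place 17 in the control. The sign of its difference turned with the scaling: it was 0.05 after scaling by the median of ratios, 0.13 with the length trend removed and 0.37 after quantile normalization.

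RPS2, which lies at the mRNA entry channel, had the highest level in all libraries and the next smallest difference after RPS6. It was at 230.5 FPKM in shBCAT1 1 and 250.7 FPKM in shBCAT1 2, against 289 FPKM in the control, a fitted difference of -0.26 ± 0.14 (SE) that became 0.15 after quantile normalization. RPS21 was at 134.5 FPKM in shBCAT1 1 and 127.6 FPKM in shBCAT1 2, against 213.8 FPKM in the control. RPS26, which lines the mRNA exit channel, was at 41.4 FPKM in shBCAT1 1 and 33.6 FPKM in shBCAT1 2, against 61.6 FPKM in the control. RPS13 was at 61.2 and 49.5 FPKM in the shBCAT1 libraries, against 89.9 FPKM in the control. These 3 genes had bounds apart from the control in both libraries. Their fitted differences lay between -0.71 and -0.70.

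RPS3A, a neighbour of the initiation factor eIF3 when it is bound, was at 33 FPKM in shBCAT1 1 and 32.5 FPKM in shBCAT1 2, against 50.8 FPKM in the control. RPS27, a zinc-binding protein, was at 126.9 FPKM in shBCAT1 1 and 125.2 FPKM in shBCAT1 2, against 187 FPKM in the control. RPSA, the laminin receptor precursor whose loss of function causes congenital asplenia, was at 79 and 79.7 FPKM in the shBCAT1 libraries, against 111 FPKM in the control. The shBCAT1 libraries were nearly equal for these 3 genes and lay below the control with bounds apart. RPS4X, the X-linked form of a body protein, was at 50.4 FPKM in shBCAT1 1 and 51 FPKM in shBCAT1 2, against 66.3 FPKM in the control. RPS7, RPS9 and RPS15A were lower by 25.4%, 25.6% and 27.3% in the mean of the shBCAT1 libraries. RPS23, which lies at the decoding centre, had the lowest level of the set, at 10.5 FPKM in shBCAT1 1 and 11.4 FPKM in shBCAT1 2, against 16.5 FPKM in the control. The transcript matched to RPS23 has 3437 bases, the longest of the set, and FPKM divides by length, so its level set against the others depends on which transcript was annotated.

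Differences thus ranged from -0.94 to -0.02 over the 28 genes. The median was -0.59 over 12 head proteins (sites were assigned after the values were seen) and -0.51 over 16 proteins of the body and platform. In shBCAT1 1 these medians were -0.50 and -0.51, and in shBCAT1 2 they were -0.69 and -0.49. Between the shBCAT1 libraries, 20 of the 28 genes were lower in shBCAT1 2 than in shBCAT1 1, with a median difference of -0.06 in log2(FPKM + 1) that ran from -0.34 for RPS20 to 0.18 for RPS7. Over all genes tested the same median was 0.11. Genes whose annotated start began with the pyrimidine tract (18) had a median difference from the control of -0.55, beside -0.58 for the 6 that lacked it. RPS2, RPS15A and RPS20, which had no RefSeq window, were in neither group. Nor was RPS29, whose RefSeq start lay 12294 bases from the deposited one. These genes differed by -0.265, -0.455, -0.707 and -0.942, in that order. A trend on fragments per FPKM, a measure related to length and explained with the length results, was then removed. With it removed, the medians were -0.22 for the head and -0.20 for the body and platform. They were then -0.22 for genes with the tract and -0.20 for genes without it, so the order of these last groups turned.

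**Figure D2:**
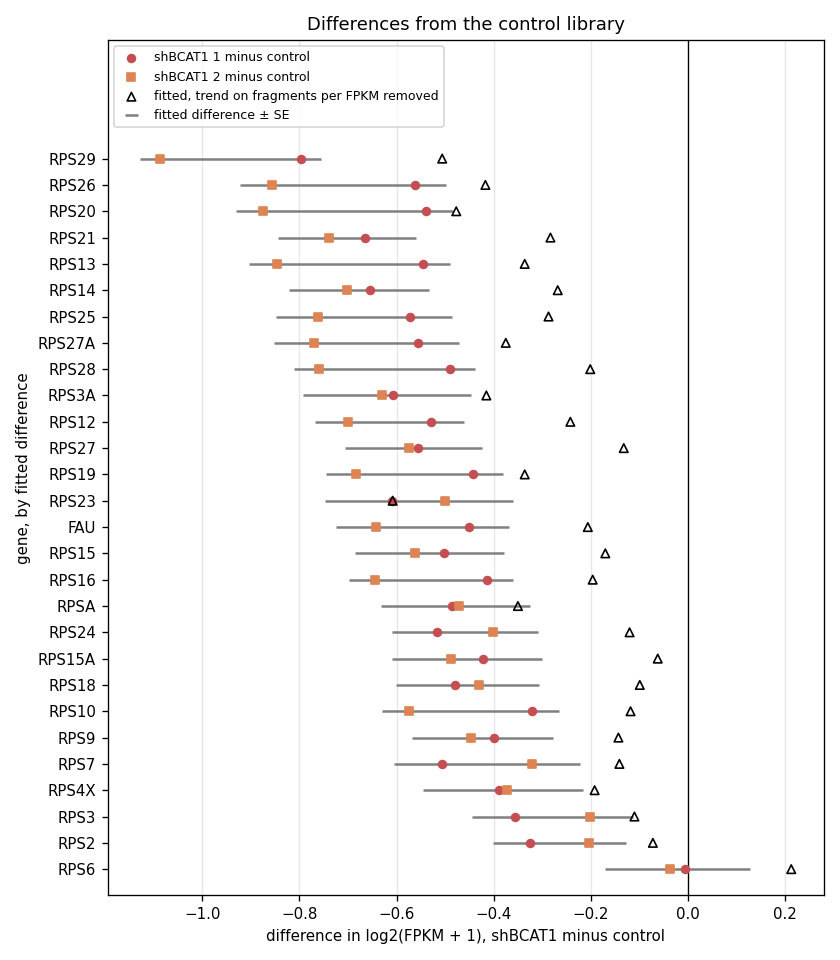
Difference in log2(FPKM + 1) of each shBCAT1 library from the control (circles and squares) with the fitted difference ± SE (grey bars), and the fitted difference after a trend on fragments per FPKM was removed (triangles). All points lie below 0 except the triangle of RPS6 at 0.21.

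Transcript length and level varied with the difference across the whole transcriptome. Among genes tested other than the 28, the median difference was -0.38 for transcripts under 500 bases (120 genes), -0.33 for 500 to 1000 bases (458 genes), -0.13 for 1000 to 2000 bases (1277 genes), 0.02 for 2000 to 4000 bases (1362 genes) and 0.08 above that (556 genes). The small subunit genes had medians of -0.70 (3 genes), -0.54 (18 genes) and -0.38 (5 genes) in the first 3 of these ranges. The 2 with matched lengths of 2000 to 4000 bases, RPS19 and RPS23, had a median of -0.56, which lies outside that order. By level, the other genes had medians of -0.01 at 1 to 5 FPKM, -0.17 at 5 to 20 FPKM, -0.33 at 20 to 100 FPKM and -0.37 above 100 FPKM. The members had medians of -0.58 (12 genes) and -0.53 (15 genes) in the 2 highest ranges. Among genes outside the cytosolic ribosome at 20 FPKM or more and with transcripts under 1000 bases, the median was -0.40 (92 genes), beside -0.57 for the 21 small subunit genes in that range. With transcripts of 1000 bases or more, it was -0.19 (110 genes), beside -0.43 for 6 small subunit genes. The part that length and level play in the lower values of the ribosomal genes was not tested beyond these values.

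**Figure D3:**
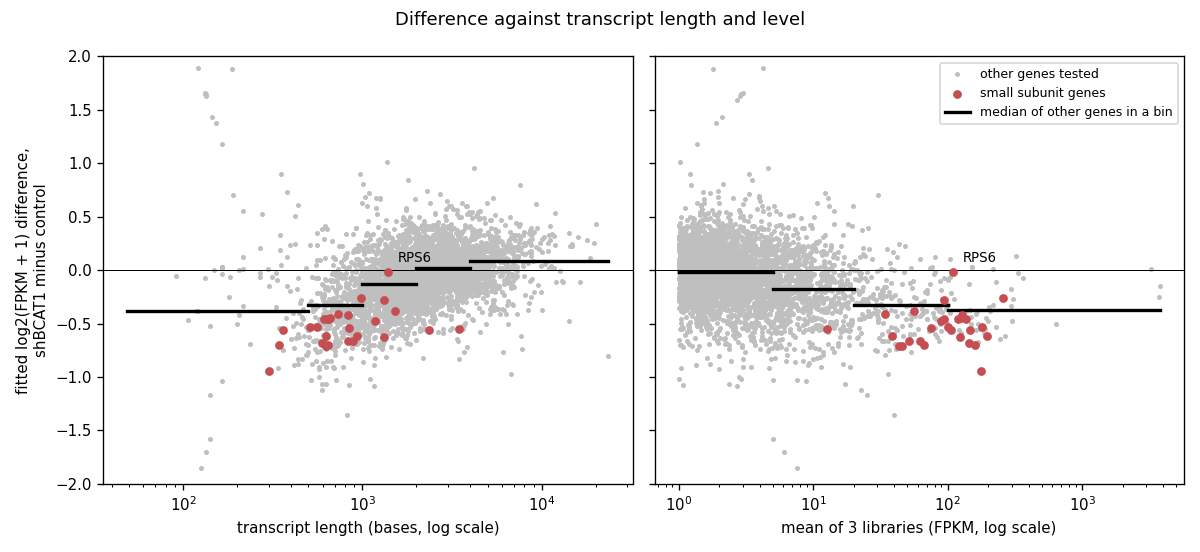
Fitted difference in log2(FPKM + 1), shBCAT1 minus control, against transcript length (left) and mean level (right) for the 28 small ribosomal subunit genes (red) and all other genes tested (grey), with medians of the other genes in each range as black lines. The vertical axis ends at ±2, which leaves out 24 genes on the left and 27 on the right; short and abundant genes lie lower, and the ribosomal genes lie mostly below those lines.

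With the trend on transcript length removed from each library, the median difference of the 28 genes was -0.25, beside 0.01 for all genes, and 24 of the 28 had both shBCAT1 values below the control, beside 34.6% of genes. After quantile normalization 18 of 28 did, beside 32.2% of genes. The lengths are those of GENCODE entries for the same RefSeq transcripts and need not be those the authors used. For RPS28 the match had 1326 bases, while its locus in the deposited tables spans 897. A measure that needs no match was read from the bounds, as the number of fragments that the bounds imply for each unit of FPKM. It was taken from the most abundant transcript of each gene alone. Wide bounds of that transcript lower the measure, so it does not reflect length only. It was lowest for RPS29 at 2.09 and RPS27 at 2.34, 2.81 for RPS28, 9.8 for RPS6 and highest for RPS23 at 48.7. For RPS19 it was 10.1, near that of RPS6, although the matched lengths were 2359 and 1387 bases. The matched length of RPS19 is thus also uncertain. With the trend on this measure removed, the median was -0.20, beside -0.00 for all genes, and 26 of 28 genes had both values below the control, beside 35.2%. The largest remaining differences were -0.61 for RPS23 and -0.51 for RPS29. Across the 28 genes the difference was closer to 0 at more fragments per FPKM, with a Pearson r of 0.43 on the log2 of the measure (Spearman rho 0.49), and had r = -0.01 with the control's FPKM (rho 0.02). These describe genes that share libraries and are not independent replicates.

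Most of the 28 genes had 1 transcript above 1 FPKM, and 7 had several. In RPS14 (chromosome 5, 150444229 to 150449756), a platform protein whose loss of 1 copy underlies the anaemia of the 5q- syndrome, the gene's sum was 121.1 and 117.2 FPKM in the shBCAT1 libraries, against 191.3 FPKM in the control. The main transcript was at 96.1 FPKM in shBCAT1 1 and 92.3 FPKM in shBCAT1 2, against 164.4 FPKM in the control. A second one was at 13.8 FPKM in shBCAT1 1 and 15.4 FPKM in shBCAT1 2, against 13.7 FPKM in the control, with overlapping bounds. The bounds of the main transcript were 25.9 to 166.4 FPKM in shBCAT1 1 but 83.8 to 100.8 FPKM in shBCAT1 2. In shBCAT1 1 the bounds of the gene's sum thus overlapped those of the control.

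RPS27A had 2 transcripts with different starts. The more abundant one was at 26.7 FPKM in shBCAT1 1 and 28.1 FPKM in shBCAT1 2, against 47.3 FPKM in the control, with bounds apart in both. The other was at 20 FPKM in shBCAT1 1 and 12.1 FPKM in shBCAT1 2, against 21.2 FPKM in the control, and only in shBCAT1 2 did its bounds lie below those of the control. The more abundant transcript thus made up 57.2% of the gene's FPKM in shBCAT1 1 and 69.9% in shBCAT1 2, against 68.5% in the control. RPS24, which is spliced at its end into forms that differ between tissues, had a main transcript at 92.9 FPKM in shBCAT1 1 and 108.9 FPKM in shBCAT1 2, against 136.7 FPKM in the control. This was 79.6% and 86.2% of the gene's sum in the shBCAT1 libraries, against 81.7% in the control. In RPS10 the main transcript held 88.4% and 83% of the sum in the shBCAT1 libraries, against 86.5% in the control.

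**Figure D4:**
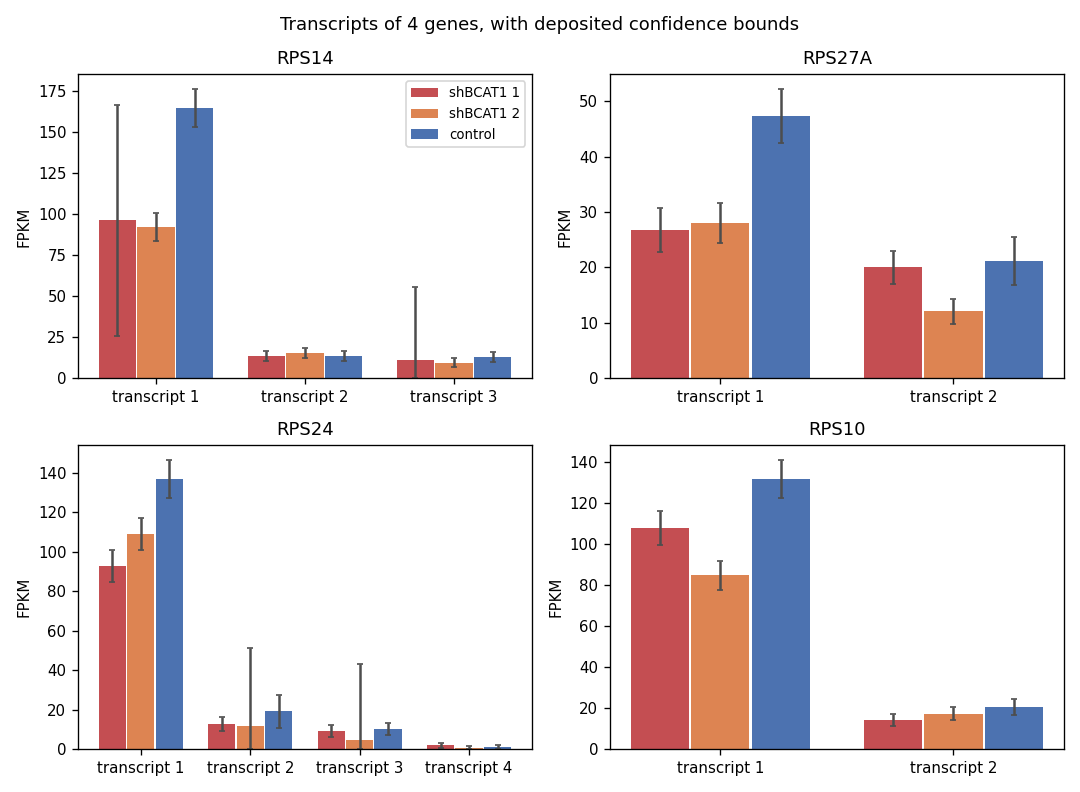
FPKM of the transcripts above 1 FPKM of RPS14, RPS27A, RPS24 and RPS10 in the shBCAT1 libraries (red, orange) and the control (blue), with the deposited confidence bounds as bars. The most abundant transcript of each gene is lower in both shBCAT1 libraries than in the control, while the minor transcripts overlap in most cases and have wide bounds in single libraries.

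Ribosomal protein genes share reads with processed pseudogenes, copies of their mRNAs inserted in the genome, and how reads that match several places were counted is not given in the sources used here. GENCODE names 394 pseudogenes of the 28 genes, from 1 each for RPS9, RPS13 and RPS25 to 74 for RPSA. Only 10 of these have an entry in the deposited tables, at summed means of at most 0.395 FPKM per gene. Within 4 loci lay another gene at 1 FPKM or more, small nucleolar RNAs in introns of RPSA, RPS2 and RPS3 and MRPL49 beside FAU. How far reads shared with pseudogenes or overlapping genes changed the values of the 28 genes is not known.

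Large subunit genes had both shBCAT1 values below the control in 46 of 47, with a median of -0.47 (range -0.69 to -0.10), and 0 passed the limma test. The share below the control in both was 43.7% over all genes tested. It was 75.1% over the 413 genes within the range of levels of the 28, which include large subunit genes. RPL41 was at 226.3 and 224.2 FPKM in the shBCAT1 libraries, against 347 FPKM in the control. RPL29 was at 266.4 and 268.2 FPKM, against 371.6 FPKM in the control, and RPL8 at 271.6 and 273.6 FPKM, against 344.4 FPKM in the control. With the trend on fragments per FPKM removed, the large subunit had a median of -0.21 and the 28 small subunit genes one of -0.20. The difference between the subunits was not tested.

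Protein genes of the mitochondrial small subunit, which serve the separate ribosome of that organelle, were far lower in level. Of 29 listed, 23 were measured, with a median difference of -0.20. Both shBCAT1 values were below the control in 16, beside 43.7% of all genes tested. MRPS17 was at 20.4 and 16.8 FPKM in the shBCAT1 libraries, against 30.6 FPKM in the control. MRPS24 was at 9.67 and 8.92 FPKM, against 16.9 FPKM in the control, and MRPS34 at 10.9 and 12.1 FPKM, against 15.4 FPKM in the control. None of the 23 passed the limma test.

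Of 59 listed factors that assemble the small subunit in the nucleolus and cytoplasm, 36 were measured. Both shBCAT1 values were below the control in 16 and above it in 9, close to the shares over all genes tested, which were 43.7% and 25.6%. Their median was -0.05, beside -0.06 over all genes tested. Fibrillarin (FBL), the methyltransferase that modifies rRNA, was at 24.9 and 24.4 FPKM in the shBCAT1 libraries, against 29.6 FPKM in the control. NOP56, its partner, was at 9.61 and 10.8 FPKM, against 10.1 FPKM in the control, and both overlapped it within bounds. TRMT112, an activator of several methyltransferases, was at 7.83 and 8.82 FPKM in the shBCAT1 libraries, against 14.4 FPKM in the control, with bounds apart. None passed the limma test.

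Other mRNAs known to start with a pyrimidine tract, mostly of elongation and initiation factors, had a median of -0.25 over 13 measured of 14. Both shBCAT1 values were below the control in 9, and none passed the limma test. The share below the control in both was 43.7% over all genes tested. It was 75.1% over the 413 genes within the range of levels of the small subunit genes, which are counted among them. The median level of this list was 23.4 FPKM. EEF1A1, the elongation factor that delivers tRNAs, was at 73.4 and 77.6 FPKM in the shBCAT1 libraries, against 96.9 FPKM in the control, and EEF1G at 59.6 and 72.7 FPKM, against 76.7 FPKM in the control. EEF1D was at 59.3 and 53.2 FPKM in the shBCAT1 libraries, against 76 FPKM in the control, with overlapping bounds. After quantile normalization the median of this list was 0.01. Of 12 regulators of these mRNAs and of RPS6 phosphorylation, 4 were measured. Both shBCAT1 values were above the control in 3 of these, beside 25.6% of all genes tested. Their median transcript length was 3619 bases. Their median difference was 0.165, and 0.13 with the length trend removed. LARP1, which binds the cap and the tract of TOP mRNAs, was at 4.54 FPKM in shBCAT1 1 and 4.86 FPKM in shBCAT1 2, against 3.68 FPKM in the control, with bounds apart in both. The fitted difference of LARP1 was 0.283, and 0.185 with the length trend removed. It was 0.133 with the trend on fragments per FPKM removed. RPS6KB2, an S6 kinase, was at 5.93 and 4.71 FPKM, against 4.58 FPKM in the control, and EIF4EBP1, a repressor of cap-dependent initiation, at 5.6 and 7.62 FPKM, against 7.59 FPKM in the control. Bounds overlapped for both, and adjusted p by limma was 0.804 for LARP1, 0.876 for RPS6KB2 and 0.877 for EIF4EBP1.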

How the data were processed

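RNA-seq of MTAC-P cells was analysed in 2 shBCAT1 libraries and 1 control library, grouped and numbered by their titles. The series' design text speaks of triplicate. The authors deposited FPKM per RefSeq transcript and locus with lower and upper confidence bounds. Trim Galore, TopHat, Cufflinks and build hg38 are named in the submitters' processing notes. The sources used here give no versions, settings or strand, and the files give no counts, so read depth is unknown.

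The 50337 accessions were named from a RefSeq table on GRCh38.p14 (49281) and GENCODE release 29 (625), and 431 stayed unnamed. FPKM was summed per symbol. Genes with a status other than OK (341) were left out. The distance from value to upper bound was taken as 2 SDs, and SDs were combined over transcripts as a root sum of squares. limma 3.58.1 (R 4.3.3) was fitted on log2(FPKM + 1), which understates changes of low genes, with an intensity trend over the 3889 genes that averaged 1 FPKM or more and Benjamini-Hochberg adjustment; p-values are two-sided. The fit was tested on simulated data. Trends were removed by lowess (span 0.5, statsmodels 0.14.6), and Python 3.11.15 with pandas 2.3.3, numpy 2.4.6, scipy 1.17.1 and matplotlib 3.10.9 was used. Coordinates are 1-based, hg38.

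The 28 genes, the lists, their sites on the subunit and the tests were chosen with earlier results of these data known. Named genes were all 28, BCAT1 and the 3 most abundant of each other list. Some results under this rule are not reported here. Alternatives were other pseudocounts, filters, scalings, ways to sum transcripts, trend removals, gene sets and the leaving out of each shBCAT1 library. The trend on fragments per FPKM, the fit on protein-coding genes and scaled bounds were added after seeing the data.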

Additional observations from a re-analysis of the deposited data

How the results depend on the processing

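The median difference of the 28 genes, -0.55, was -0.48 after scaling by the median of ratios, -0.25 with the length trend removed, -0.20 with the trend on fragments per FPKM removed (chosen after seeing the data) and -0.18 after quantile normalization, which also left 18 genes with both shBCAT1 values below the control. The cause was not tested. Under every other alternative run it moved by less than the spread between the shBCAT1 libraries, and left-out libraries gave -0.602 to -0.504 and all 28 genes below the control. The call count among the 28 genes was 0 under each alternative that was fitted by limma. With 1 shBCAT1 library left out no residual degrees of freedom remain, so those are values with no test. Over all genes, 14 calls became 0 with no filter and on protein-coding genes alone, 8 at a minimum mean of 5 FPKM, 9 with quantile normalization, 7 with transcripts apart and 1 without loci under 300 bases. The share of summed FPKM was 1.21 points lower than the control (-1.21); without 1 library it was -1.502 to -0.926.

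Signs turned in few genes. RPS6 went to 0.054 (median of ratios), 0.13 (length trend), 0.21 (fragments per FPKM) and 0.37 (quantile). Quantile normalization also turned RPS2 (0.15), RPS3 (0.074), RPS4X (0.05), RPS9 (0.014), RPS18 (0.043), RPL8 (0.034), FBL (0.053), EEF1G (0.15) and EEF1D (0.012), and it brought EEF1A1 to 0.00. Transcripts kept apart turned NOP56 (-0.26) and EEF1D (0.11), the length trend EIF4EBP1 (0.06) and fragments per FPKM MRPS34 (0.034) and EIF4EBP1 (0.034). With 1 shBCAT1 library left out, NOP56 ranged from -0.062 (without shBCAT1 2) to 0.099 and EIF4EBP1 from -0.381 to 0.005 (without shBCAT1 1). No paired analysis was possible because the control has 1 library.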
